A study of Homo sapiens with 11 samples.

Results

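For each gene, the response to small interfering RNA (siRNA) against MYEOV was compared between 2 human pancreatic cancer lines, as the log2 fold change of siRNA over control in PANC-1 minus that in AsPC-1. The genes read for this difference were the 9691 with a mean of 5 or more CPM (read counts scaled to library size) in the controls of both lines, of 16680 genes with enough counts to be tested and 58735 in the tables. Both effects and their difference came from 1 model over all 11 libraries. AsPC-1, an epithelial line grown from ascites of a pancreatic adenocarcinoma, was represented by 2 controls and 3 libraries with MYEOV siRNA, and PANC-1, a line from a ductal carcinoma of the pancreas, by 3 of each. RNA was taken 48 hours after transfection of the siRNA. The sample labels call the controls wild type and untreated while the protocol lists a negative-control siRNA, so a response to MYEOV siRNA and one to transfection cannot be told apart. A pair of MYEOV siRNAs is named, and it is not given whether the library numbers stand for replicates, for the siRNAs or for separately grown cells; each p-value thus rests on variation among these libraries that could be technical only. The lines were kept in different culture media, so line and medium cannot be told apart either.

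An siRNA loads its guide strand into an Argonaute protein, which cuts mRNAs that match the guide along its length. Guides also pair through a short stretch near their start with 3' untranslated regions (3' UTRs) of other mRNAs and lower them more weakly. An effect of an siRNA on a gene can therefore come through the target, through such short matches or through transfection, and the same siRNA can act to different extents in cell lines that take it up, or express the target, differently. MYEOV is a gene of human chromosome 11 that is overexpressed in several carcinomas and whose protein is little characterised.

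Libraries held 12113093 to 15066456 counts on genes. Mitochondrial transcripts took 13.2% to 13.9% of the counts in AsPC-1 and 6.21% to 6.82% in PANC-1. Replicates varied by 2.77% (edgeR's biological coefficient of variation) in AsPC-1 fitted alone, 6.08% in PANC-1 fitted alone and 4.99% in the shared model. PANC-1 control 2 stood apart from the other PANC-1 controls, with a chi-square over degrees of freedom of 5.97 and 4.87 across genes, against 1.67 to 3.69 for all other pairs within a group. Epithelial keratins were present in both lines, with KRT8 at 118161 to 139258 counts in AsPC-1 and 12117 to 20248 in PANC-1, while the summed level of 14 tested epithelial identity markers was 20776 to 21702 CPM in AsPC-1 and 2355 to 2910 CPM in PANC-1. Of the markers of leukocytes and endothelium, PTPRC had 0 to 2 counts, CD3E 0 and CDH5 0 to 1, whereas LYZ reached 328 to 394 counts in AsPC-1 with 0 in PANC-1, and ENG 204 to 266 in AsPC-1 with 613 to 821 in PANC-1; the part of other cell types in the results was not tested. Of the fibroblast markers, LUM, a matrix proteoglycan, reached 1244 to 4068 counts in AsPC-1 and 0 to 2 in PANC-1, so it did not enter the comparison. The collagen gene COL1A1 went the other way, with 8 to 11 counts in AsPC-1 and 401 to 672 in PANC-1. So did COL3A1, with 0 to 4 and 45 to 85. Across both lines COL1A2 had 0 to 4 counts, DCN 0 to 6, FAP 0 to 1 and PDGFRB 3 to 19. The 9 tested fibroblast markers, some of them not named here, summed to 1055 to 1094 CPM in the AsPC-1 controls. With siRNA that sum was 849 to 857 CPM. In PANC-1 it was 114 to 137 CPM in controls and 146 to 148 with siRNA.

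MYEOV itself (ENSG00000172927, chromosome 11, 69294138 to 69367726, plus strand; gene positions here are those of the GRCh38 annotation) was lowered further in AsPC-1. It measured 131 and 129.7 CPM in the AsPC-1 controls and 42.9, 50.7 and 48.1 CPM in the siRNA libraries, which left 36.3% of the control mean. For MYEOV in PANC-1 the controls measured 75.1, 68.6 and 64.4 CPM and the siRNA libraries 37.7, 35.8 and 39.8 CPM, which left 54.5%. All siRNA libraries lay below all controls of their line. Over all 9691 genes, control and siRNA libraries did not overlap for 60.8% in AsPC-1 and 32.9% in PANC-1, so such separation is common. The fold changes of MYEOV were -1.46 and -0.88 on the log2 scale, a difference of 0.59 (SE 0.10, edgeR quasi-likelihood interaction test, Benjamini-Hochberg adjusted p = 0.00153 over 16680 genes). In RNA from whole cultures, fewer cells that lost a transcript and less RNA per cell cannot be told apart. SOX9, a ductal transcription factor, did not pass the test of the difference (0.22, SE 0.09, edgeR adjusted p = 0.185), nor did HES1, an effector of Notch signalling (0.45, SE 0.13, edgeR adjusted p = 0.0553). Under the processing alternatives, 9 values of SOX9 or HES1 did pass the threshold, so the lack of a call depends on the processing. HES1 measured 36.5 and 36.9 CPM in the AsPC-1 controls against 29.5, 30.7 and 30.1 with siRNA, and 17.2, 21.4 and 23.3 against 23.1, 22.2 and 24.1 in PANC-1, where the groups overlapped.

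The responses of the lines differed for 647 of the 9691 genes (6.68%), and for 727 of all 16680 tested genes (4.36%), at an edgeR adjusted p under 0.05. The siRNA effect was the larger in AsPC-1 for 545 of the 647 (5.62% of the 9691) and in PANC-1 for 102 (1.05%). Effects called in AsPC-1 alone made up 395 of them, with 235 rises and 160 falls. Effects called in both lines in the same direction but larger in AsPC-1 made up 119, with 59 rises and 60 falls. Only 80 were called in PANC-1 alone, 52 rising and 28 falling, and 0 were called in both lines with the larger change in PANC-1. Opposite calls were found for 36 genes, of which 15 rose and 21 fell in AsPC-1, and 17 differed with no effect called in either line. Within each line, the same model called 2898 of the 9691 genes in AsPC-1 (29.9%), with 1614 rises (16.7%) and 1284 falls (13.2%). For PANC-1 it called 1698 (17.5%), with 824 rises (8.5%) and 874 falls (9.02%).

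**Figure D1:**
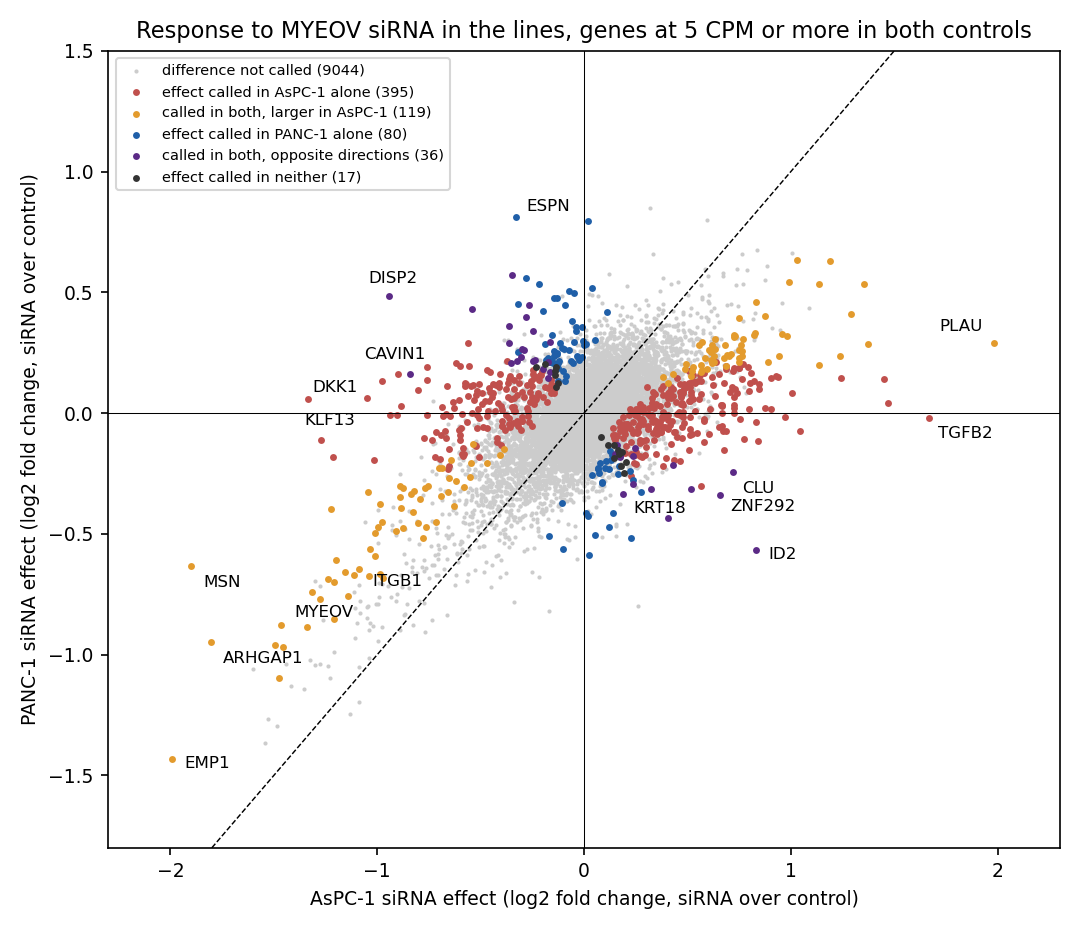
Log2 fold change of siRNA over control in AsPC-1 (horizontal) and PANC-1 (vertical) for the 9691 genes at 5 CPM or more in the controls of both lines, with the 647 called differences coloured by class and the dashed line marking equal effects. Most coloured points lie farther along the AsPC-1 axis than the PANC-1 axis (545 of 647), with PLAU and TGFB2 at the right, MSN and ARHGAP1 at the left and 36 genes in opposite quadrants.

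Most of these differences were modest. Of the 647, 226 exceeded 0.5 on the log2 scale and 19 exceeded 1, and the median size was 0.42 against 0.12 over all 9691 genes, where the median standard error was 0.11. The signs of the effects were the same in both lines for 304 of the called genes and opposite for 343. Positive differences numbered 300 (3.1%) and negative ones 347 (3.58%), and this balance shifted with scaling, to 319 and 297 with RLE size factors and to 355 and 268 with upper-quartile factors. The AsPC-1 libraries had the lower spread when fitted alone, but the shared model fits a common spread to all libraries. Its median standard error was 0.081 for the AsPC-1 effect and 0.070 for the PANC-1 effect. The part of spread in the larger share called in AsPC-1 was not tested. With each line fitted on its own spread and a normal test of the difference, 1080 differences were larger in AsPC-1 and 226 in PANC-1. Single libraries weighed on the count, which was 279 without AsPC-1 control 1, 274 without AsPC-1 control 2, 426 without AsPC-1 siRNA 1, 421 without PANC-1 siRNA 1 and 965 without PANC-1 control 2. In that last setting 778 differences were larger in AsPC-1 and 187 in PANC-1, with 4 genes called in both lines and larger in PANC-1. Genes nearest the floor of 5 CPM showed no called difference on either side of it, namely EIF5AP4 (-0.41), RCBTB2 (-0.46) and C19orf44 (-0.19) just inside and MEMO1 (-0.41), FAAP24 (0.05) and SH3BP1 (0.52) just outside.

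Strong responses were followed from one line to the other. The 64 genes called more than 2-fold lower in AsPC-1 had a median log2 fold change of -1.21 there and -0.84 in PANC-1, where 59 were called lower too; 29 of the 64 had a called difference. The 17 genes called more than 2-fold higher in AsPC-1 had medians of 1.24 and 0.29, 9 were called higher in PANC-1, and 15 had a called difference. Starting from PANC-1, the 18 genes called more than 2-fold lower had a median of -1.10 there and -1.34 in AsPC-1, all 18 were called lower in AsPC-1 and 2 differed. No gene was called more than 2-fold higher in PANC-1. Since each set was picked by its change in the first line, its median in that line is a description of the choice. Across the 9691 genes the effects of the lines had a Pearson correlation of 0.63 and a Spearman correlation of 0.54, as a description over genes, which are not replicates and share their libraries.

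Among genes called lower in both lines, MSN, ARHGAP1, ZMIZ1 and GDAP1 had the largest differences, with deeper falls in AsPC-1. MSN (ENSG00000147065, chromosome X, 65588377 to 65741931, plus strand) encodes moesin, which ties actin filaments to the plasma membrane. It measured 246 and 240.1 CPM in the AsPC-1 controls and 60.3, 63.1 and 72.3 CPM with siRNA, and 565, 552 and 572 against 352, 375 and 362 CPM in PANC-1. Control and siRNA libraries did not overlap in either line, and AsPC-1 kept 26.8% of its control level where PANC-1 kept 64.4% (difference 1.26, SE 0.08, edgeR adjusted p = 1.63e-09). Such separation held for 60.8% of all 9691 genes in AsPC-1 and 32.9% in PANC-1. ARHGAP1 (ENSG00000175220, chromosome 11, 46677080 to 46700615, minus strand), a GTPase-activating protein, went from 199 and 200.1 to 56.2, 58.4 and 56.5 CPM in AsPC-1 and from 85.0, 74.2 and 82.2 to 41.2, 42.8 and 41.3 CPM in PANC-1. It too fell in both lines without overlap, to 28.6% and 51.9% of control (difference 0.86, SE 0.08, edgeR adjusted p = 2.23e-06).

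EMP1 (ENSG00000134531, chromosome 12, 13196716 to 13219939, plus strand), a membrane protein of the PMP22 family, had the deepest falls among the genes named here in both lines. Its levels were 417 and 421 CPM in the AsPC-1 controls against 99.8, 105 and 111 with siRNA, and 63.4, 72.2 and 63.8 against 24.0, 24.9 and 24.9 in PANC-1. The siRNA libraries kept 25.1% and 37.0% of control with tight replicates, and the difference was 0.56 (SE 0.09, edgeR adjusted p = 5.55e-04). ITGB1 (ENSG00000150093, chromosome 10, 32900319 to 33005792, minus strand), the beta-1 integrin subunit that pairs with many alpha subunits to bind matrix, measured 2798 and 2650.5 CPM in the AsPC-1 controls and 1220.5, 1275 and 1355 with siRNA, and 1537, 1671 and 1573 against 989.6, 1020.2 and 1044 CPM in PANC-1. ITGB1 thus fell in both lines, with log2 fold changes of -1.09 and -0.65, and more in AsPC-1 (difference 0.44, SE 0.06, edgeR adjusted p = 2.78e-04). ZMIZ1, a transcriptional coregulator, fell to 42.7% and 76.0% of control (difference 0.83, SE 0.09, edgeR adjusted p = 2.34e-05), and GDAP1, a protein of the mitochondrial outer membrane, to 48.4% and 79.9% (difference 0.72, SE 0.18, edgeR adjusted p = 0.0218). The GDAP1 call was lost on leaving out any 1 of 3 of the 11 libraries (edgeR adjusted p from 0.0716 to 0.122) and by DESeq2 (adjusted p = 0.0552).

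Other genes fell in AsPC-1 with no call in PANC-1. KLF13 (ENSG00000169926, chromosome 15, 31326855 to 31435665, plus strand), a Krüppel-like transcription factor, measured 205 and 209.8 CPM in the AsPC-1 controls and 80.4, 88.8 and 88.2 with siRNA, against 90.2, 86.9 and 84.1 and 80.1, 80.0 and 82.0 CPM in PANC-1. The AsPC-1 groups were far apart; the PANC-1 siRNA libraries lay just below their controls, a change that was not called (log2 fold change -0.11, edgeR adjusted p = 0.191; difference 1.16, SE 0.08, edgeR adjusted p = 4.86e-09). DKK1 (ENSG00000107984, chromosome 10, 52314296 to 52318042, plus strand), a secreted inhibitor of Wnt signalling, measured 203 and 193 CPM and then 90.5, 90.5 and 106 CPM in AsPC-1, while the PANC-1 libraries overlapped at 354, 369 and 353 CPM in controls and 375, 358 and 391 with siRNA (difference 1.11, SE 0.08, edgeR adjusted p = 2.90e-08). CRIP2, a LIM domain protein, fell in AsPC-1 from 7.82 and 8.24 to 3.60, 3.29 and 2.65 CPM and stood at 115, 102 and 123 against 118, 116 and 121 CPM in PANC-1 (difference 1.39, SE 0.18, edgeR adjusted p = 7.32e-05). These AsPC-1 levels are near the floor of 5 CPM, as are those of ENPP1, a pyrophosphatase of the cell surface (difference 1.11, SE 0.19, edgeR adjusted p = 0.00142), and of the F-box protein FBXL16 (difference 1.06, SE 0.21, edgeR adjusted p = 0.00435). The FBXL16 call was lost without AsPC-1 control 2 (edgeR adjusted p = 0.0729).

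**Figure D2:**
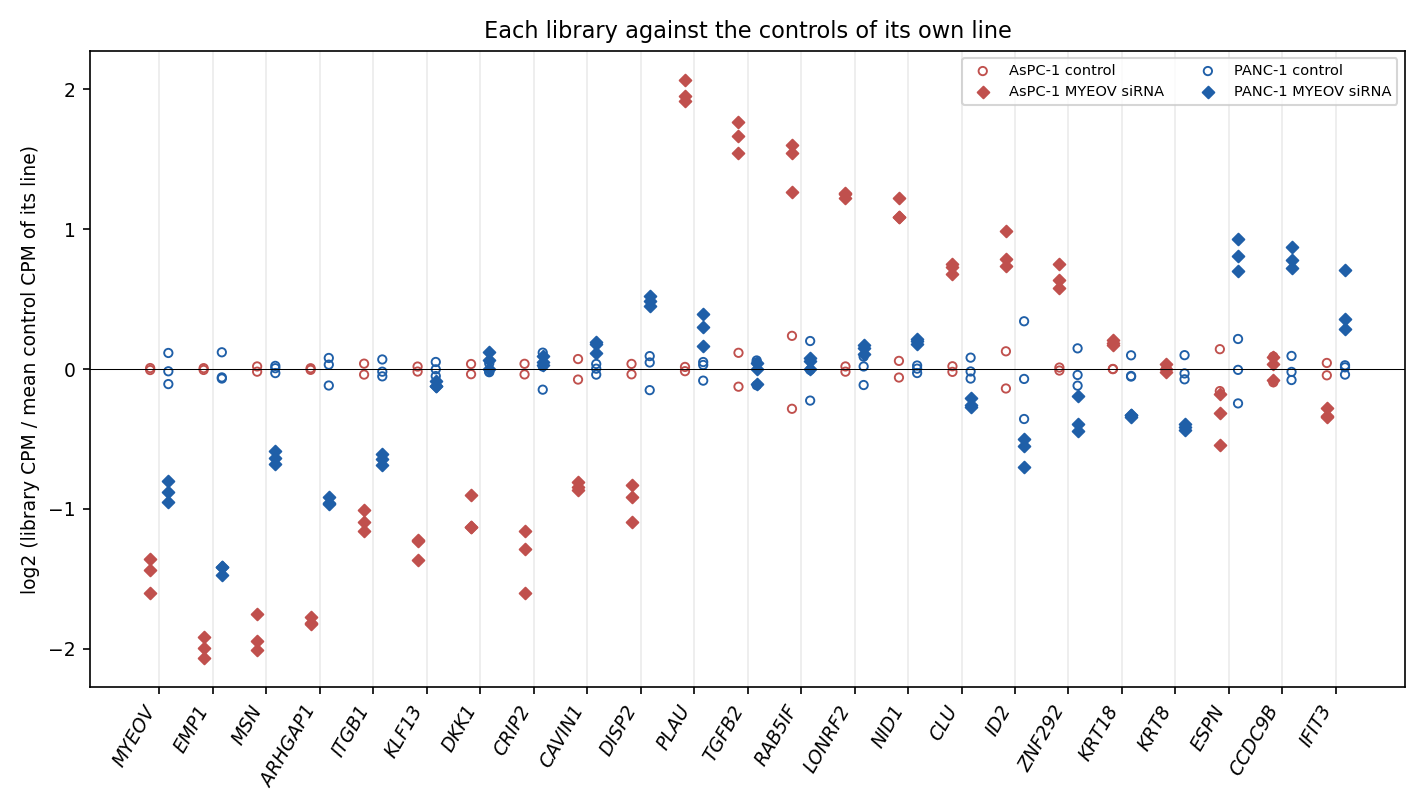
Log2 ratio of each library's CPM to the mean of the controls of its own line for 23 named genes, with open circles for controls, filled diamonds for siRNA libraries, red for AsPC-1 and blue for PANC-1. Diamonds of the lines separate for every gene shown, on the same side of 0 for MYEOV, EMP1, MSN, ARHGAP1, ITGB1 and PLAU and on opposite sides for CAVIN1, DISP2, CLU, ID2, ZNF292 and KRT18.

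Many of the genes that fell carry the 7-base word CTCATGT in the 3' UTR, a word that was found earlier on these same data. Its surroundings are shown for genes that differ in how alike the lines responded, with the word in capitals and 10 bases on either side, as DNA letters of the mRNA strand from the annotated transcripts of GENCODE release 29. The first lines are MSN, ARHGAP1, ZMIZ1 and KLF13, which fell more in AsPC-1, then EMP1 and ITGB1, then ALYREF and BZW2, which fell in both lines with no called difference, and LONRF2, ZNF292 and DICER1, which carry it and rose in AsPC-1.

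MSN: ccttctctgtCTCATGTgtgctcttct
ARHGAP1: tttggtctttCTCATGTcccccactgg
ZMIZ1: gtctctctcgCTCATGTaatatactct
KLF13: ttccatggagCTCATGTttttcttttc
EMP1: acatttatgtCTCATGTaatttgcatt
ITGB1: catggttttaCTCATGTgcaggttttg
ALYREF: gatttaaaaaCTCATGTaaaggttttt
BZW2: tgtgtatctgCTCATGTatgtgatttg
LONRF2: agctgagtctCTCATGTgtgtggcatt
ZNF292: caggtcactgCTCATGTataacagtac
DICER1: agaagagaaaCTCATGTcatgtttatt

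All 11 words lie in annotated 3' UTRs (GRCh38 annotation), on the plus strand at chrX:65741257-65741263 in MSN, chr10:79315948-79315954 in ZMIZ1, chr15:31377601-31377607 in KLF13, chr12:13216626-13216632 in EMP1, chr7:16706464-16706470 in BZW2 and chr6:87262116-87262122 in ZNF292. On the minus strand they lie at chr11:46677224-46677230 in ARHGAP1, chr10:32901469-32901475 in ITGB1, chr17:81887992-81887998 in ALYREF, chr2:100279370-100279376 in LONRF2 and chr14:95086901-95086907 in DICER1. The bases beside the word differ from gene to gene.

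The word was searched on the mRNA strand of the 3' UTRs of all annotated protein-coding transcripts of the 9277 genes that have one, and 1385 of them (14.9%) carry it. Their log2 fold changes had medians of -0.09 (AsPC-1) and -0.08 (PANC-1), with a median difference of 0.01, against 0.04, 0.02 and -0.03 for the 5243 genes without the core TCATGT, which lies within the longer word. Of the carriers 116 (8.38%) had a called difference, 79 positive and 37 negative, against 342 (6.52%) of genes without the core, 135 positive and 207 negative. The 212 genes with 2 or more copies had medians of -0.13 and -0.12 and a called difference in 21 cases (9.91%). Carriers have longer 3' UTRs, with a median of 3037 bases against 862 in genes without the core, and the part of length in these counts was not tested.

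**Figure D3:**
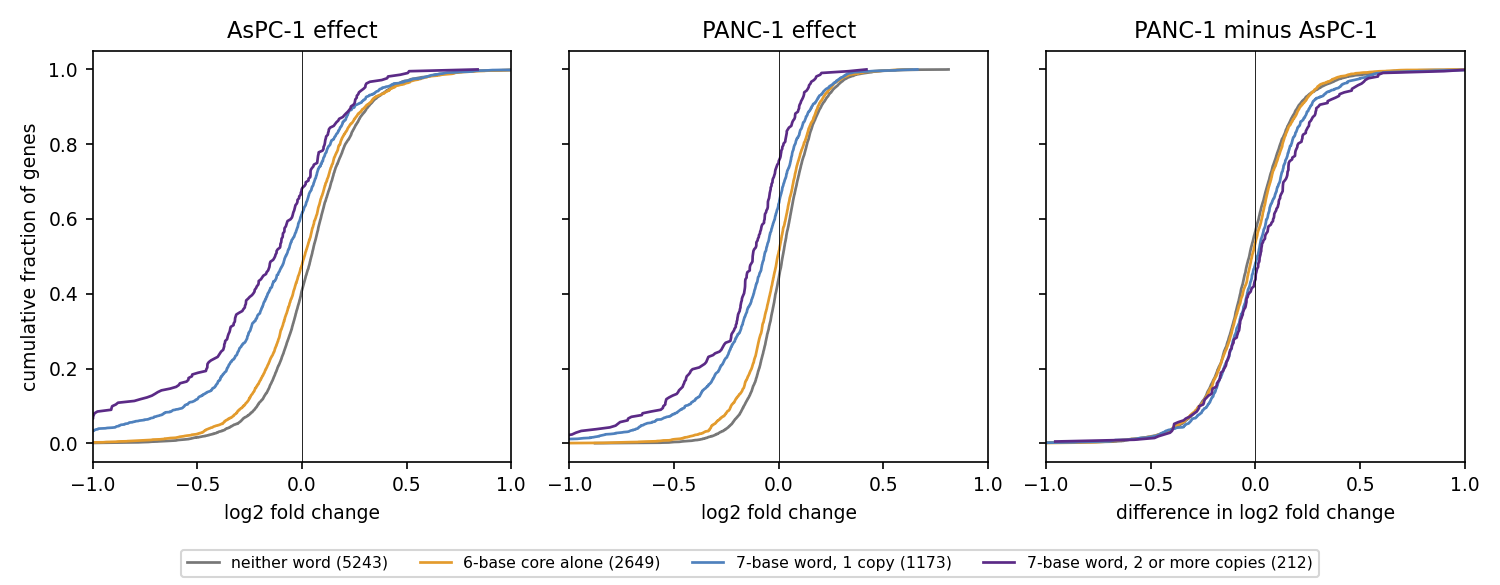
Cumulative fraction of genes by log2 fold change in AsPC-1, in PANC-1 and by their difference, for genes grouped by the 3' UTR word CTCATGT and its core TCATGT. Curves of the carriers lie to the left of the others in both lines, while in the panel of the difference the group medians run from -0.03 to 0.01.

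The called differences were then split by direction. Of the genes that fell more in AsPC-1, 74 of 231 with a 3' UTR carry CTCATGT (32.0%). The shares were 32 of 303 (10.6%) among genes that rose more in AsPC-1, 5 of 38 (13.2%) among those that fell more in PANC-1 and 5 of 62 (8.06%) among those that rose more in PANC-1. Among all genes with a 3' UTR called lower, whether or not the lines differed, 439 of 1229 carry the word in AsPC-1 and 357 of 834 in PANC-1. As the word was found on these same data, its shares are a description and no test. Among the 439 carriers called lower in AsPC-1, 288 (65.6%) were called lower in PANC-1 and 72 (16.4%) had a called difference. The 790 non-carriers called lower in AsPC-1 were called lower in PANC-1 in 236 cases (29.9%), and 162 (20.5%) had a called difference. Median changes were -0.43 and -0.31 for those carriers in AsPC-1 and PANC-1, and -0.33 and -0.12 for those non-carriers. Of carriers that fell more than 2-fold in AsPC-1, 49 of 51 were called lower in PANC-1, as were 7 of 10 non-carriers. DKK1, CRIP2, ENPP1 and FBXL16, named above, fell in AsPC-1 alone and do not carry the word.

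Among the genes that rose more in AsPC-1, PLAU and TGFB2 led. PLAU (ENSG00000122861, chromosome 10, 73909177 to 73917497, plus strand) encodes urokinase, the protease that activates plasminogen at the cell surface, and had the largest difference of the 9691 genes. It measured 25.9 and 25.3 CPM in the AsPC-1 controls and 108, 99.2 and 96.8 with siRNA, a 3.95-fold rise. For PLAU in PANC-1 the controls stood at 275, 271 and 251 CPM and the siRNA libraries at 328, 349 and 297, a 1.22-fold rise from a level that already exceeded that of AsPC-1 after siRNA. Groups did not overlap in either line (difference -1.69, SE 0.10, edgeR adjusted p = 1.63e-09).

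TGFB2 (ENSG00000092969, chromosome 1, 218346235 to 218444619, plus strand), a TGF-beta ligand, showed the same order of baselines. It rose from 5.69 and 6.73 CPM to 21.2, 18.2 and 19.7 CPM in AsPC-1 (3.17-fold), while PANC-1 held 37.4, 41.9 and 42.3 CPM in controls and 41.8, 37.7 and 40.5 with siRNA, which overlapped (difference -1.69, SE 0.15, edgeR adjusted p = 3.59e-07). NID1, the basement membrane protein nidogen, rose in both lines, from 38.1 and 41.4 to 84.3, 92.6 and 84.4 CPM in AsPC-1 and from 258, 253 and 262 to 299, 296 and 292 CPM in PANC-1 (difference -0.94, SE 0.08, edgeR adjusted p = 1.45e-07). LTBP1, which binds latent TGF-beta in the matrix, moved the other way. Its levels were 108 and 105 CPM and 80.6, 81.3 and 86.2 CPM with siRNA in AsPC-1, and 35.5, 36.8 and 37.2 against 45.9, 42.9 and 45.0 CPM in PANC-1, so that it fell in the first and rose in the second (difference 0.65, SE 0.08, edgeR adjusted p = 6.23e-05).

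Further rises of AsPC-1 had differences near or above 1 log2. RAB5IF, a small membrane protein, measured 26.7 and 18.6 CPM in the AsPC-1 controls, which differed from each other, and 54.4, 66.3 and 68.8 CPM with siRNA, against 33.8, 29.002 and 38.97 and 35.3, 33.9 and 35.8 CPM in PANC-1 (difference -1.43, SE 0.17, edgeR adjusted p = 3.36e-05). NDUFAF8, an assembly factor of respiratory complex I, rose 2.77-fold in AsPC-1 from controls at 7.89 and 5.05 CPM and measured 1.10-fold of control in PANC-1 (difference -1.31, SE 0.21, edgeR adjusted p = 7.39e-04). MCRIP1, a partner of the corepressor CtBP that is regulated by MAP kinase, rose 2.08-fold in AsPC-1 from 9.11 and 7.18 CPM and stood at 0.950-fold in PANC-1 (difference -1.12, SE 0.15, edgeR adjusted p = 9.50e-05). LONRF2, a RING finger protein, went from 49.1 and 47.8 to 116, 115 and 113 CPM in AsPC-1, with near-identical replicates, and from 67.9, 78.1 and 74.4 to 82.9, 79.2 and 81.6 CPM in PANC-1, a change that was not called (difference -1.10, SE 0.08, edgeR adjusted p = 7.77e-08). RNF11, another RING finger protein, rose 2.59-fold and 1.22-fold (difference -1.09, SE 0.15, edgeR adjusted p = 2.63e-04), and AGFG2, a protein with an ArfGAP domain, 2.36-fold and 1.18-fold (difference -1.001, SE 0.12, edgeR adjusted p = 3.42e-05).

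In 15 genes a rise in AsPC-1 met a fall in PANC-1. CLU, the secreted chaperone clusterin, measured 56.6 and 58.2 CPM in the AsPC-1 controls and 92.1, 96.6 and 95.4 with siRNA, and 249.8, 225 and 233 against 196, 204 and 198 CPM in PANC-1. The libraries of control and siRNA did not overlap in either line, with fold changes of 1.65 and 0.844 (difference -0.97, SE 0.08, edgeR adjusted p = 7.77e-08). ID2, an inhibitor of basic helix-loop-helix transcription factors, rose from 5.54 and 4.61 to 10.0, 8.47 and 8.77 CPM in AsPC-1 and fell from 9.32, 12.4 and 7.64 to 6.68, 6.91 and 6.02 CPM in PANC-1 (difference -1.40, SE 0.24, edgeR adjusted p = 0.00152). PANC-1 control 2 had the highest ID2 value of that line, at 12.4 CPM, and all ID2 levels are low. ZNF292, a zinc finger protein, rose 1.58-fold and fell to 79.1% of control (difference -0.99, SE 0.11, edgeR adjusted p = 2.34e-05), and TMEM64, a transmembrane protein, rose 1.32-fold and fell to 73.8% (difference -0.84, SE 0.16, edgeR adjusted p = 0.0035).

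In the other 21 a fall in AsPC-1 met a rise in PANC-1. CAVIN1 (ENSG00000177469, chromosome 17, 42402452 to 42423517, minus strand), a coat protein of caveolae, measured 49.6 and 44.8 CPM in the AsPC-1 controls and 27.0, 25.9 and 26.3 with siRNA, and 365, 357 and 346 against 403, 408 and 386 CPM in PANC-1. The AsPC-1 groups were well apart and the PANC-1 groups narrowly so (difference 1.005, SE 0.08, edgeR adjusted p = 7.77e-08). DISP2, a relative of the hedgehog release protein Dispatched, went from 19.1 and 18.2 to 9.87, 8.71 and 10.5 CPM in AsPC-1 and from 10.95, 9.25 and 10.6 to 14.8, 14.4 and 14.0 CPM in PANC-1 (difference 1.43, SE 0.15, edgeR adjusted p = 5.84e-06). SLC4A11, a membrane transporter, fell to 79.0% of control in AsPC-1 and rose 1.49-fold in PANC-1 (difference 0.92, SE 0.13, edgeR adjusted p = 3.26e-04). TLCD2, a membrane protein that carries CTCATGT, fell to 68.8% and rose 1.35-fold (difference 0.98, SE 0.16, edgeR adjusted p = 7.45e-04).

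PANC-1 had 80 differences in genes called there alone, against 395 in AsPC-1. ESPN (ENSG00000187017, chromosome 1, 6424776 to 6461367, plus strand), the actin-bundling protein espin, measured 8.67, 7.34 and 10.1 CPM in the PANC-1 controls and 16.6, 14.2 and 15.2 with siRNA. ESPN libraries of AsPC-1 stood at 6.98 and 8.59 CPM in controls and 6.28, 5.34 and 6.87 with siRNA, which was not called there (edgeR adjusted p = 0.187; difference 1.14, SE 0.21, edgeR adjusted p = 0.00217). CCDC9B, a coiled-coil protein, rose from 22.5, 20.8 and 20.0 to 38.6, 36.2 and 34.8 CPM in PANC-1 and overlapped at 25.4 and 28.9 and 27.9, 25.7 and 28.8 CPM in AsPC-1 (difference 0.78, SE 0.12, edgeR adjusted p = 4.56e-04). IFIT3, an interferon-induced protein, rose 1.38-fold in PANC-1, where siRNA 3 had the highest of 7.18, 7.56 and 9.60 CPM (difference 0.77, SE 0.17, edgeR adjusted p = 0.0103). The IFIT3 call was lost without AsPC-1 control 1 (edgeR adjusted p = 0.0744). ITPKA, an inositol trisphosphate kinase, rose 1.48-fold (difference 0.84, SE 0.21, edgeR adjusted p = 0.0249), a call lost on leaving out any 1 of 5 of the 11 libraries (edgeR adjusted p from 0.0519 to 0.142). The PANC-1 controls of ITPKA measured 5.22, 5.14 and 4.74 CPM, near the floor of 5 CPM.

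Falls in PANC-1 alone were led by EIF3CL, a near copy of the translation factor gene EIF3C whose reads cannot be told apart with certainty. EIF3CL measured 76.1, 105 and 50.8 CPM in the PANC-1 controls and 52.1, 56.5 and 52.4 with siRNA, so the controls ranged widely and overlapped the siRNA libraries (difference -0.75, SE 0.21, edgeR adjusted p = 0.049). Its call was lost on leaving out any 1 of 8 of the 11 libraries (edgeR adjusted p from 0.0725 to 0.193), in a fit on the 9691 genes only (adjusted p = 0.0657), by DESeq2 (adjusted p = 0.189) and by limma voom (adjusted p = 0.0758). HNF4G, a nuclear receptor of the gut and pancreas, fell from 5.74, 6.09 and 6.19 to 3.62, 3.74 and 4.73 CPM in PANC-1 and overlapped at a far higher level in AsPC-1, 68.8 and 74.8 and 75.5, 69.1 and 74.6 CPM (difference -0.61, SE 0.15, edgeR adjusted p = 0.0214); this call was lost on leaving out any 1 of 4 of the 11 libraries (edgeR adjusted p from 0.0548 to 0.101) and by limma voom (adjusted p = 0.0634). ZCCHC2, a zinc finger protein, fell to 79.6% of control in PANC-1 (difference -0.60, SE 0.15, edgeR adjusted p = 0.0249) and THNSL1, a threonine synthase-like protein, to 72.2% (difference -0.59, SE 0.15, edgeR adjusted p = 0.0244). These calls were lost on leaving out any 1 of 5 of the 11 libraries (edgeR adjusted p from 0.0546 to 0.248) for ZCCHC2 and on leaving out any 1 of 5 of the 11 libraries (edgeR adjusted p from 0.0576 to 0.144) for THNSL1.

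Keratins and other intermediate filament genes give epithelial cells their mechanical strength. Of 15 members, 7 differed, 4 positive and 3 negative, and 5 of them changed more in PANC-1, against 6.68% of all 9691 genes, with a list median of 0.07 against -0.02. KRT18 (ENSG00000111057, chromosome 12, 52948871 to 52952901, plus strand), which forms the filaments of simple epithelia with KRT8, rose from 3018 and 3021 to 3405, 3430.1 and 3481 CPM in AsPC-1 and fell from 536, 484 and 483 to 395, 399 and 398 CPM in PANC-1 (difference -0.52, SE 0.06, edgeR adjusted p = 1.39e-05). KRT8 measured 10569 and 10469 CPM in the AsPC-1 controls and 10529.6, 10389.7 and 10806 with siRNA, which overlapped, and fell from 1320.0, 1171 and 1206 to 912, 938 and 924 CPM in PANC-1 (difference -0.42, SE 0.06, edgeR adjusted p = 1.25e-04). The genes KRT8 and KRT18 overlap on opposite strands. KRT15, a keratin of basal cells, fell to 82.3% of control in AsPC-1 and rose 1.32-fold in PANC-1 (difference 0.68, SE 0.13, edgeR adjusted p = 0.00394), and PLEC and DSP, linkers of the filaments, did likewise with differences of 0.46 and 0.39. NES had a difference of 0.39 and EVPL one of -0.29. The NES call was lost on leaving out any 1 of 3 of the 11 libraries (edgeR adjusted p from 0.0523 to 0.194), and that of EVPL on leaving out any 1 of 7 of the 11 libraries (edgeR adjusted p from 0.0563 to 0.243), with RLE scaling (adjusted p = 0.05) and with upper-quartile scaling (adjusted p = 0.0611). Leaving out single libraries gave 5 to 9 calls in this list. The 14 tested epithelial identity markers summed to 2649 to 2910 CPM in the PANC-1 controls and 2355 to 2382 with siRNA, and to 20776 to 21028 and 21102 to 21702 CPM in AsPC-1. KRT8 and KRT18 belong to that sum, and its part in the result was not tested.

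**Figure D4:**
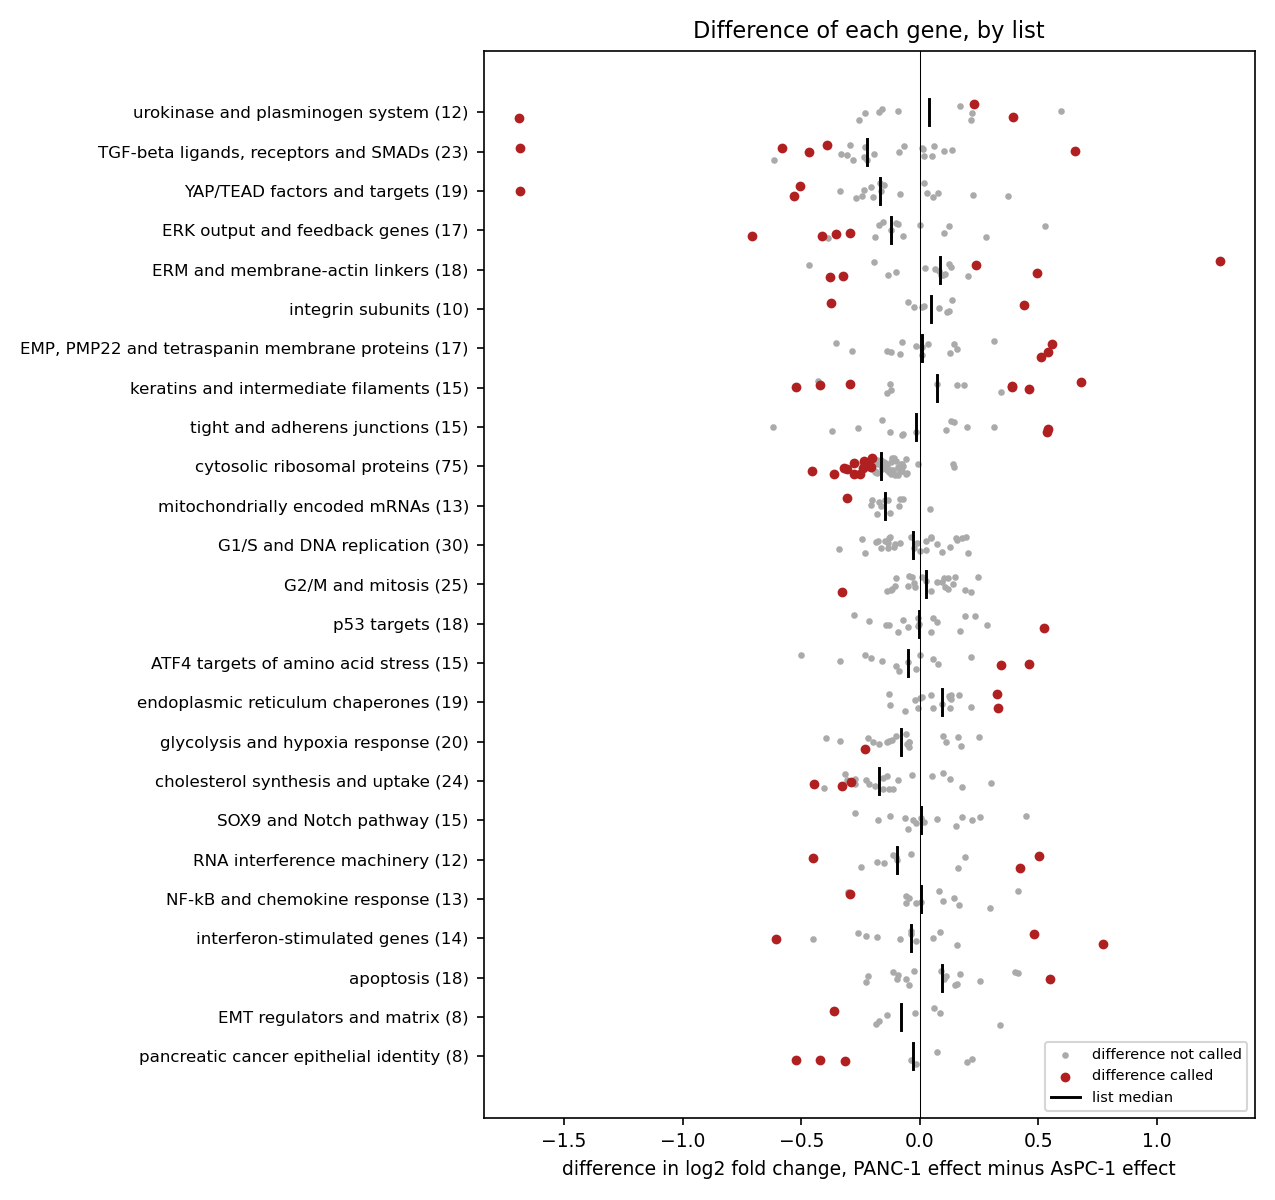
Difference in log2 fold change (PANC-1 effect minus AsPC-1 effect) of the compared genes in the lists drawn, each of 8 or more, with red points for called differences, grey points for the others and a bar at each list's median. Ribosomal protein genes crowd at a median of -0.16, and keratins spread to both sides. The medians of the TGF-beta list (-0.22) and the YAP/TEAD list (-0.17) lie farther from 0, while most other medians lie nearer to it.

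Lists of the cell surface and cytoskeleton held further differences. Of 18 ERM proteins and membrane-actin linkers, 5 differed (27.8%, against 6.68% of all genes), all with the larger change in AsPC-1, as had 545 of the 647 called genes overall. Beside MSN, positive differences were those of FLNA, the actin crosslinker filamin A (0.49, SE 0.08), and ACTN1, an alpha-actinin (0.24), and the negative ones those of TLN1, the integrin activator talin (-0.38), and the hyaluronan receptor CD44 (-0.32). ACTN1 lost its call on leaving out any 1 of 5 of the 11 libraries (edgeR adjusted p from 0.0532 to 0.123). FLNA measured 341 and 385 CPM in the AsPC-1 controls and 269, 294 and 280.2 with siRNA, and 1635, 1437 and 1478 against 1671, 1703 and 1583 CPM in PANC-1, where the groups overlapped. Among 10 integrin subunits, ITGB1 and ITGB5 differed (20.0%), in opposite directions. ITGB5 rose from 172 and 167 to 207, 213 and 210.5 CPM in AsPC-1 and measured 428, 389.7 and 416 against 395, 387 and 395 CPM in PANC-1 (difference -0.38, SE 0.06, edgeR adjusted p = 0.00111). Of 17 EMP and tetraspanin membrane proteins, 3 differed (17.6%), all positive: EMP1, the tetraspanin CD9 (0.51) and PMP22 (0.54, edgeR adjusted p = 0.0408). The PMP22 call was lost on leaving out any 1 of 8 of the 11 libraries (edgeR adjusted p from 0.0515 to 0.201) and by DESeq2 (adjusted p = 0.0675).

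Junction genes contributed a pair of members. CLDN7, a claudin of tight junctions, fell to 75.2% of control in AsPC-1 and stood at 109% in PANC-1 (difference 0.54, SE 0.10, edgeR adjusted p = 0.00212). MARVELD2, the tricellular junction protein tricellulin, rose 1.36-fold in PANC-1 alone (difference 0.54, SE 0.13, edgeR adjusted p = 0.0199), a call lost on leaving out any 1 of 4 of the 11 libraries (edgeR adjusted p from 0.0596 to 0.0961). They were 2 of 15 junction genes (13.3%, against 6.68% of all genes), with 1 to 6 calls when single libraries were left out.

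TGF-beta ligands signal through paired receptors to SMAD transcription factors. Of 23 TGF-beta ligands, receptors and SMADs, 11 rose and 3 fell in AsPC-1, 6 rose and 3 fell in PANC-1, and 5 differed (21.7%), all with the larger change in AsPC-1. Over all 9691 genes 16.7% rose and 13.2% fell in AsPC-1, 8.5% rose and 9.02% fell in PANC-1, and 6.68% differed. Beside TGFB2 and LTBP1 these were the receptor ACVR1B (-0.47), the transducer SMAD2 (-0.39) and the inhibitory SMAD6 (-0.58), and the list median was -0.22. Leaving out single libraries gave 3 to 7 calls: ACVR1B lost its call without AsPC-1 control 1 (edgeR adjusted p = 0.0595) or without AsPC-1 control 2 (edgeR adjusted p = 0.092), and SMAD2 on leaving out any 1 of 5 of the 11 libraries (edgeR adjusted p from 0.0615 to 0.25). TGFBI, a matrix protein induced by TGF-beta, rose 1.43-fold in AsPC-1 and 1.11-fold in PANC-1 (difference -0.36, SE 0.07, edgeR adjusted p = 0.00417). Of 17 output and feedback genes of the ERK pathway, 10 rose in AsPC-1 and 5 in PANC-1, and the 4 called differences (23.5%) were all negative, with 1 to 5 calls when single libraries were left out. ETV5, an ETS transcription factor, rose from 32.2 and 27.4 to 61.4, 57.2 and 53.8 CPM in AsPC-1 and from 94.5, 91.6 and 99.9 to 107, 115 and 115 CPM in PANC-1 (difference -0.71, SE 0.10, edgeR adjusted p = 2.78e-04). FOSL1, a subunit of AP-1, rose 1.51-fold and 1.14-fold (difference -0.41, SE 0.09, edgeR adjusted p = 0.00977), and lost its call without AsPC-1 control 1 (edgeR adjusted p = 0.0582) or without AsPC-1 control 2 (edgeR adjusted p = 0.0724). MYC rose in AsPC-1 and fell in PANC-1, by small amounts (0.17 and -0.18, difference -0.35, edgeR adjusted p = 0.00841), a call lost without AsPC-1 control 2 (edgeR adjusted p = 0.0901). IER3, an early response gene, had a difference of -0.30 (edgeR adjusted p = 0.0299) that was lost on leaving out any 1 of 8 of the 11 libraries (edgeR adjusted p from 0.0619 to 0.141) and with upper-quartile scaling (adjusted p = 0.0597).

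Of 19 factors and targets of YAP and TEAD, the transcription regulators of the Hippo pathway, 3 differed (15.8%, against 6.68% of all genes), all negative. They were TGFB2, the LIM protein AJUBA and the receptor tyrosine kinase AXL. AJUBA rose from 40.1 and 40.7 to 49.6, 46.8 and 46.1 CPM in AsPC-1 and fell from 52.5, 49.0 and 47.2 to 38.7, 41.5 and 41.2 CPM in PANC-1 (difference -0.53, SE 0.10, edgeR adjusted p = 0.00217), whereas AXL rose in both, by 0.76 and 0.26 on the log2 scale (difference -0.50, edgeR adjusted p = 4.56e-04). The list median was -0.17. In the urokinase and plasminogen system, TIMP2, an inhibitor of matrix metalloproteinases, rose from 40.8, 41.6 and 47.1 to 53.3, 59.5 and 53.3 CPM in PANC-1 and measured 904 and 884 against 867, 871 and 875 CPM in AsPC-1, a far higher level at which no change was called (difference 0.39, SE 0.08, edgeR adjusted p = 0.00384). ANXA2, a plasminogen-binding annexin, had a difference of 0.23, and lost its call without AsPC-1 control 1 (edgeR adjusted p = 0.114) or without AsPC-1 siRNA 1 (edgeR adjusted p = 0.0519). With PLAU these made 3 of 12 (25.0%), and 2 to 5 when single libraries were left out.

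Cytosolic ribosomal protein genes encode the protein part of the translating ribosome. Of 75 compared, 41 rose and 0 fell in AsPC-1, while 1 rose and 1 fell in PANC-1, where over all genes 16.7% rose and 13.2% fell in AsPC-1 and 8.5% and 9.02% in PANC-1. Their median difference was -0.16, 2 members had a positive one, and 12 were called (against 6.68% of all genes), all negative. The count of calls was 2 to 18 when single libraries were left out (2 without AsPC-1 control 1, 18 without PANC-1 control 2), 5 with upper-quartile scaling and 23 by limma voom. RPS27 measured 211 and 217 CPM in the AsPC-1 controls and 262, 258 and 276 with siRNA, and 232, 214 and 202 against 206, 207 and 213 CPM in PANC-1 (difference -0.36, SE 0.07, edgeR adjusted p = 0.00532), a call lost without AsPC-1 control 1 (edgeR adjusted p = 0.056). RPS29 had the largest difference of the list (difference -0.45, SE 0.13, edgeR adjusted p = 0.043) and lost its call on leaving out any 1 of 10 of the 11 libraries (edgeR adjusted p from 0.0617 to 0.19), with RLE scaling (adjusted p = 0.0513) and with upper-quartile scaling (adjusted p = 0.0597). Many pseudogenes resemble these genes, which makes their counts uncertain. Of the 13 mRNAs of the mitochondrial genome, 3 rose in AsPC-1 and 6 fell in PANC-1. MT-ND3, a subunit of complex I, was the 1 called difference (7.69%, near the 6.68% of all genes), with 0 to 4 calls when single libraries were left out (difference -0.31, SE 0.06, edgeR adjusted p = 0.00462), a call lost without AsPC-1 control 2 (edgeR adjusted p = 0.0679).

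Cell cycle genes gave few called differences. Of 30 genes of G1/S and DNA replication, 8 fell in AsPC-1 and 13 in PANC-1, and edgeR called 0 differences, with 4 at an unadjusted p under 0.05 and 0 by DESeq2. The 25 mitotic and G2/M genes had 11 falls in AsPC-1 and 6 in PANC-1, where 13.2% and 9.02% of all genes fell. MKI67, the proliferation antigen Ki-67, was the 1 called difference (against 6.68% of all genes), with 4 calls without PANC-1 control 2, of which 3 were positive. It rose in AsPC-1, from 898 and 890.1 to 1117, 1121 and 1104 CPM, and overlapped in PANC-1, at 649, 656 and 619 and 637, 666 and 607 CPM (difference -0.33, SE 0.06, edgeR adjusted p = 0.00182). CDKN1A, the p53-induced inhibitor of cyclin-dependent kinases, fell to 50.4% of control in AsPC-1 and 72.4% in PANC-1 (difference 0.52, SE 0.15, edgeR adjusted p = 0.043), and its call was lost on leaving out any 1 of 7 of the 11 libraries (edgeR adjusted p from 0.059 to 0.413) and by limma voom (adjusted p = 0.0557). It was 1 of 18 p53 targets (5.56%), a share near the 6.68% of all genes. BAK1, a pore-forming effector of apoptosis, fell in AsPC-1 and rose in PANC-1 (0.818-fold and 1.20-fold; difference 0.55, SE 0.10, edgeR adjusted p = 0.00188) and was 1 called of 18 apoptosis genes (5.56%), again near that share. Without PANC-1 control 2 that list had 4 calls, and by DESeq2 3.

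Genes of nutrient and protein stress gave single differences. SLC7A5, the large neutral amino acid transporter and an ATF4 target, fell from 279 and 273 to 229, 237 and 235 CPM in AsPC-1 and rose from 457, 443 and 459 to 526, 541 and 515 CPM in PANC-1 (difference 0.46, SE 0.06, edgeR adjusted p = 5.10e-05). PSAT1, an enzyme of serine synthesis, rose 1.23-fold in PANC-1 alone (difference 0.34, SE 0.09, edgeR adjusted p = 0.0358), a call lost on leaving out any 1 of 7 of the 11 libraries (edgeR adjusted p from 0.053 to 0.211). They were 2 of 15 ATF4 targets (13.3%, against 6.68% of all genes). XBP1 and EDEM1, of the unfolded protein response and of disposal of misfolded proteins, had differences of 0.33 and 0.32 (edgeR adjusted p = 0.0373 and 0.0377), and these calls were lost on leaving out any 1 of 7 of the 11 libraries (edgeR adjusted p from 0.052 to 0.198) for XBP1 and on leaving out any 1 of 9 of the 11 libraries (edgeR adjusted p from 0.0701 to 0.166) for EDEM1. Of cholesterol synthesis, the enzymes MVK (-0.45, edgeR adjusted p = 0.0447) and SQLE (-0.29, edgeR adjusted p = 0.038) had negative differences, with rises called in AsPC-1 alone. MVK lost its call on leaving out any 1 of 10 of the 11 libraries (edgeR adjusted p from 0.0521 to 0.284), with RLE scaling (adjusted p = 0.0573), with upper-quartile scaling (adjusted p = 0.0639) and by DESeq2 (adjusted p = 0.0819). SQLE lost its call on leaving out any 1 of 9 of the 11 libraries (edgeR adjusted p from 0.0518 to 0.171), with RLE scaling (adjusted p = 0.0525), with upper-quartile scaling (adjusted p = 0.0625) and by DESeq2 (adjusted p = 0.0537). PFKP, a phosphofructokinase, was 1 called of 20 glycolysis and hypoxia genes (5.00%, below the 6.68% of all genes; -0.23, edgeR adjusted p = 0.0395). The PFKP call was lost on leaving out any 1 of 10 of the 11 libraries (edgeR adjusted p from 0.0555 to 0.195), with RLE scaling (adjusted p = 0.0718), with upper-quartile scaling (adjusted p = 0.0905) and by DESeq2 (adjusted p = 0.0508).

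Of 12 genes of the RNA interference machinery, 3 differed (25.0%, against 6.68% of all genes), each changed in both lines and more in AsPC-1. DICER1, which cuts small RNA precursors, rose from 96.2 and 100.4 to 162, 160.2 and 149.5 CPM in AsPC-1 and from 75.6, 89.4 and 77.1 to 98.1, 90.2 and 94.8 CPM in PANC-1 (difference -0.45, SE 0.09, edgeR adjusted p = 0.00541), a call lost without AsPC-1 control 1 (edgeR adjusted p = 0.0586). PRKRA, a partner of DICER1, fell from 48.8 and 50.9 to 26.4, 27.7 and 29.4 CPM and from 49.6, 50.1 and 45.3 to 37.6, 37.0 and 40.3 CPM (difference 0.50, SE 0.10, edgeR adjusted p = 0.00526), and AGO1, an Argonaute protein, had log2 fold changes of -0.91 and -0.49 (difference 0.42, edgeR adjusted p = 0.00871). The AGO1 call was lost without AsPC-1 control 2 (edgeR adjusted p = 0.0901). Of 15 genes of SOX9 and the Notch pathway, edgeR called 0, against 6.68% of all genes. Among them 6 had an unadjusted p under 0.05, DESeq2 called 0 and limma voom called 2.

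Immune response genes moved in both directions. Of 14 interferon-stimulated genes 3 differed (21.4%, against 6.68% of all genes), and 0 without AsPC-1 control 1. ISG15, a ubiquitin-like protein, rose 1.496-fold in AsPC-1 and measured 0.985-fold of control in PANC-1 (difference -0.61, SE 0.12, edgeR adjusted p = 0.00557), a call lost without AsPC-1 control 1 (edgeR adjusted p = 0.0522), while IFIT3 and the RNA sensor DDX58 (0.48) rose in PANC-1 alone. DDX58 lost its call on leaving out any 1 of 8 of the 11 libraries (edgeR adjusted p from 0.0591 to 0.186), with no low-count filter (adjusted p = 0.0539) and by DESeq2 (adjusted p = 0.0513). In antigen presentation, B2M, beta-2 microglobulin, had a negative difference (-0.26, edgeR adjusted p = 0.0077) and the peptide-loading protein TAPBP a positive one (0.28, edgeR adjusted p = 0.0309). B2M lost its call without AsPC-1 control 2 (edgeR adjusted p = 0.0804), and TAPBP on leaving out any 1 of 5 of the 11 libraries (edgeR adjusted p from 0.0651 to 0.174). IER3 was 1 called of 13 NF-kB genes (7.69%, near the 6.68% of all genes). TGFBI was 1 of 8 regulators and matrix genes of epithelial-mesenchymal transition (12.5%, against 6.68%). AGR2, a secretory disulfide isomerase, was the other epithelial identity gene called beside KRT8 and KRT18 (-0.32, edgeR adjusted p = 0.00535), a call lost without AsPC-1 control 2 (edgeR adjusted p = 0.0587). With 1 member compared in each, none was called in the lists of fibroblast, endothelial and non-polyadenylated or histone RNAs, and the leukocyte list had 0 members at 5 CPM.

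Against these differences stood a larger body of shared responses. Of 1029 genes called in both lines, 450 rose in both, 543 fell in both and 36 moved oppositely. A difference was called for 59 of the shared rises and 60 of the shared falls. Without a called difference were 391 rises and 483 falls, and the 95% interval of the difference lay within 0.5 log2 of 0 for 363 and 426 of them. Whether called or not, the fitted change was larger in AsPC-1 for 354 of 450 rises and 417 of 543 falls. Of 1869 genes called in AsPC-1 alone, a difference was called for 395 (21.1%), and for 80 of 669 called in PANC-1 alone, so that most genes called in 1 line only are not shown to differ between the lines.

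The strongest shared falls and rises without a called difference, picked after their values were seen by the smaller of the changes, give the size of what the lines had in common. NPC2, the lysosomal cholesterol carrier, measured 31.8 and 34.4 CPM in the AsPC-1 controls and 9.71, 12.7 and 11.6 with siRNA, and 26.7, 23.7 and 27.9 against 9.75, 10.4 and 10.4 CPM in PANC-1, with a difference of 0.18 (95% interval -0.11 to 0.47). CIAO2A, of cytosolic iron-sulfur protein assembly, had log2 fold changes of -1.13 and -1.24, and the interval of its difference ran from -0.35 to 0.12. For ALYREF, an mRNA export factor, and BZW2, a translation regulator, the intervals were 0.07 to 0.46 and 0.07 to 0.35; both lie above 0, yet neither difference passed adjustment over all genes. PRUNE1, a phosphatase, and ZFYVE21, an endosomal protein, completed the falls with differences of 0.19 and 0.29. All 6 of these genes carry CTCATGT. Among genes with a 3' UTR called more than 2-fold lower, 51 carry it and 10 do not in AsPC-1, and 17 and 1 in PANC-1. Since the word was found on these same data, the count is no separate evidence.

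Shared rises were smaller. AKIRIN1, a nuclear protein, measured 44.9 and 39.9 CPM in the AsPC-1 controls and 70.2, 78.3 and 79.4 with siRNA, and 186, 204 and 212 against 326, 306 and 330.1 CPM in PANC-1 (95% interval of the difference -0.35 to 0.02). The haem oxygenase gene HMOX1 rose by 0.59 and 0.80 on the log2 scale, with an interval from -0.06 to 0.47, and the RNA-binding protein gene RBMS1 by 0.88 and 0.61, with an interval from -0.45 to -0.09. CHCHD10, a mitochondrial protein, had the widest interval, -0.73 to 0.51. TMEM245 and FAM222B rose too, with differences of -0.14 and -0.20. Of these 6 genes TMEM245 carries CTCATGT.

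**Figure D5:**
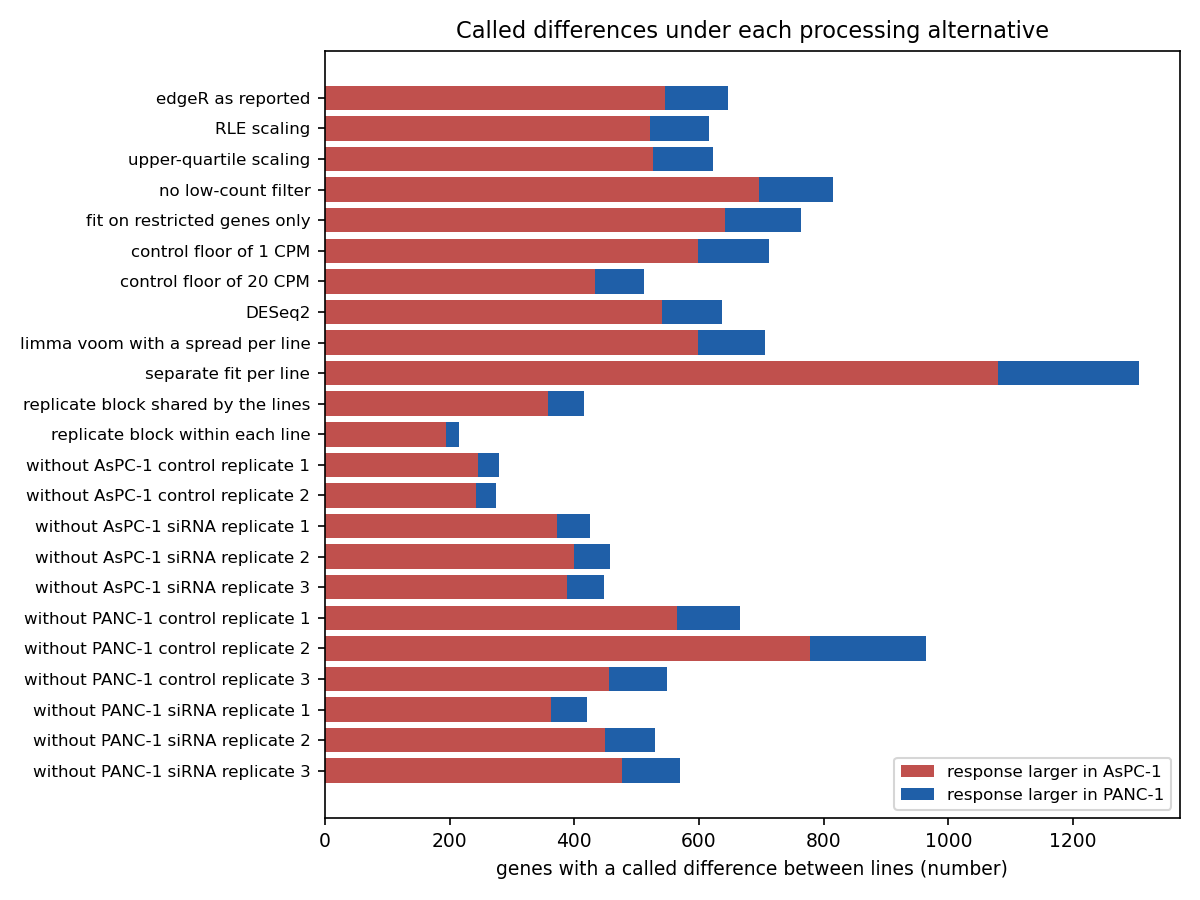
Number of genes with a called difference under each processing alternative, split by the line with the larger fitted effect. The bars run from 215 with a replicate block within each line to 1306 with a separate fit per line, and the part larger in AsPC-1 exceeds the part larger in PANC-1 in every one.

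The order of the lines did not change with the processing: differences larger in AsPC-1 outnumbered those larger in PANC-1 under all 22 alternatives. Among these, the control floors of 1 and 20 CPM only recount other sets of genes from the reported fit. No gene's own value could change there. Of the 67 named genes with a called difference beside MYEOV, 41 kept the call under every alternative that could test them, among them PLAU, TGFB2, MSN, ARHGAP1, EMP1, ITGB1, KLF13, DKK1, CAVIN1, CLU, DISP2, KRT8, KRT18, ESPN and CCDC9B. Of all 647 genes, 0 changed the sign of the difference under any alternative. Whether reads were counted by strand is not stated in the sources used here. Genes annotated on the other strand overlap 57.3% of the called genes and 58.6% of all 9691. MYEOV, PLAU, DKK1, RAB5IF, ITGB1, ID2, ESPN and DICER1 are among them, and reads of such partners cannot be told apart.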

How the data were processed

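Raw gene-level counts, without normalization, were deposited by the authors in 1 table for each of the 11 poly(A) RNA libraries. Paired reads of 150 bases from a HiSeq instrument are given per the labels' protocols. HISAT2, HTSeq and hg19 are named per the submitters' processing notes, without versions. All 58735 gene identifiers matched GENCODE release 29 (GRCh38), which gave names, positions and 3' UTRs; no coordinate came from the deposited tables. 0 columns were left unused.

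Groups follow the sample titles. Counts were fitted in edgeR 4.0.16 (R 4.3.3; filterByExpr, TMM, glmQLFit, glmQLFTest, two-sided) with 1 mean per group over all 11 libraries, and p-values were adjusted by Benjamini-Hochberg over 16680 genes with a threshold of 0.05. The standard error is the absolute log2 fold change divided by the square root of F, and intervals are 1.96 standard errors at the 95% level. CPM are TMM-scaled. The members, 31 gene lists (663 of 665 symbols matched) and tests were chosen with earlier results of these data known. Named genes were MYEOV, SOX9 and HES1, then by size of difference 5 rises and 5 falls called in AsPC-1 alone, 4 and 4 in PANC-1 alone, 4 and 4 in both lines and larger in AsPC-1, 4 and 4 with opposite calls, and up to 2 called members per list; further list members and the shared responses were named after their values were seen. Some genes and a list that these rules name are not reported here. Every pair of replicates differed by more than sampling noise. On simulated counts the test recovered 43.3%, 89.6% and 100% of genes whose difference was 0.4, 0.8 and 1.6 log2, with 4 false calls among 16427 genes, so small differences can be missed. The simulated spread followed each line's trend with expression level. It had no extra spread from gene to gene and no outlying library, so the 4 false calls do not measure the error rate in the real libraries. Alternatives were RLE and upper-quartile scaling, other filters and floors, DESeq2 1.42.0, limma 3.58.1 voom, a fit per line, replicate blocks and leaving out each library. Figures used matplotlib 3.10.9 and Python 3.11.15.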

Additional observations from a re-analysis of the deposited data

Results flagged for a closer look

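The siRNA effect differed between the lines for MYEOV and for 67 other genes named by the rule given in the processing summary, each by the edgeR interaction test at an adjusted p under 0.05 over 16680 genes, which called 6.68% of the 9691 genes compared. Differences are PANC-1 minus AsPC-1 on the log2 scale, and MYEOV itself had 0.59. Groups of 2 or 3 libraries are too small for a test of single values that lie far from their group.

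Where a rise was called in AsPC-1 alone, the difference was -1.69 for TGFB2, -1.43 for RAB5IF, -1.31 for NDUFAF8, -1.12 for MCRIP1, -1.10 for LONRF2 and -0.61 for ISG15. Where a rise was called in AsPC-1 alone, it was also -0.45 for RPS29, -0.45 for MVK, -0.38 for ITGB5, -0.36 for RPS27, -0.33 for MKI67 and -0.30 for IER3. Where a rise was called in AsPC-1 alone, it was also -0.23 for PFKP. With a fall called in AsPC-1 alone, the difference was 1.39 for CRIP2, 1.16 for KLF13, 1.11 for DKK1, 1.11 for ENPP1, 1.06 for FBXL16 and 0.54 for PMP22. With a fall called in AsPC-1 alone, it was also 0.54 for CLDN7, 0.49 for FLNA and 0.33 for XBP1. Among rises called in both lines, the difference was -1.69 for PLAU, -1.09 for RNF11, -1.001 for AGFG2, -0.94 for NID1, -0.71 for ETV5 and -0.45 for DICER1. Among rises called in both lines, it was also -0.41 for FOSL1 and -0.36 for TGFBI. Among falls called in both lines, the difference was 1.26 for MSN, 0.86 for ARHGAP1, 0.83 for ZMIZ1, 0.72 for GDAP1, 0.56 for EMP1 and 0.52 for CDKN1A. Among falls called in both lines, it was also 0.50 for PRKRA and 0.44 for ITGB1. For rises in AsPC-1 against falls in PANC-1, the difference was -1.40 for ID2, -0.99 for ZNF292, -0.97 for CLU, -0.84 for TMEM64, -0.53 for AJUBA and -0.52 for KRT18. For falls in AsPC-1 against rises in PANC-1, the difference was 1.43 for DISP2, 1.005 for CAVIN1, 0.98 for TLCD2, 0.92 for SLC4A11, 0.68 for KRT15 and 0.65 for LTBP1. For falls in AsPC-1 against rises in PANC-1, it was also 0.55 for BAK1 and 0.46 for SLC7A5. A rise called in PANC-1 alone was found where the difference was 1.14 for ESPN, 0.84 for ITPKA, 0.78 for CCDC9B, 0.77 for IFIT3, 0.54 for MARVELD2 and 0.39 for TIMP2. A rise called in PANC-1 alone was found where it was also 0.34 for PSAT1, 0.32 for EDEM1 and 0.28 for TAPBP. A fall called in PANC-1 alone was found where the difference was -0.75 for EIF3CL, -0.61 for HNF4G, -0.60 for ZCCHC2, -0.59 for THNSL1, -0.42 for KRT8 and -0.31 for MT-ND3.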

How the results depend on the processing

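Scaling, filters, control floors, DESeq2 and limma voom gave 512 to 815 called differences, within 1.5 times the 647 reported. A separate fit per line, with each line's own spread, gave 1306 differences, of which 1080 were larger in AsPC-1 and 226 in PANC-1, and all 647 were among them. That setting tested the difference against a normal distribution, which makes no allowance for few libraries, so its count is not comparable with the others. By limma voom with a spread per line, 706 were called. Leaving out single libraries gave 274 to 965 differences, with 242 to 778 larger in AsPC-1 and 32 to 187 larger in PANC-1, while effects numbered 1662 to 3402 in AsPC-1 and 1074 to 2022 in PANC-1. Where an AsPC-1 control was left out, the lone control was assumed to vary like the other groups. Without control 2 of PANC-1, which stood apart, 965 differences were called, and 606 of the 647 remained.

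Replicate numbers did not pair the libraries, since deviations of same-numbered libraries correlated at -0.02 and -0.01 in AsPC-1 and -0.01, -0.42 and -0.13 in PANC-1, and none correlated best with its own number. The AsPC-1 controls are a pair whose deviations mirror each other, so their values say little. In PANC-1, control 1 correlated with siRNA 2 at 0.37 and with siRNA 3 at -0.37, and control 2 with siRNA 3 at 0.39. The model has no term for such shared variation, and its source was not tested. With the replicate number as a block shared by the lines, 415 differences were called, 358 larger in AsPC-1 and 57 in PANC-1. A replicate block within each line left 215, of which 194 were larger in AsPC-1 and 21 in PANC-1, with 1856 effects in AsPC-1 and 1058 in PANC-1. Differences of MYEOV lay between 0.52 and 0.65 and kept the call in every alternative, blocks included. Of 1493 values of the other named genes under alternatives, 1309 kept their side of the threshold, 175 lost it, 9 gained it and 0 changed sign. Values under the control floors of 1 and 20 CPM are those of the reported fit and could not change, so the 1309 includes them. The 9 that gained it belong to SOX9 or HES1, the named genes without a call. TIMP2 and BAK1 lost theirs only with the replicate block within each line, at edgeR adjusted p = 0.0505 and 0.0501. Depth limits genes near 5 CPM such as ID2, with a standard error of 0.24 against a median of 0.11.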
